A study of Mus musculus with 4 samples.

Results

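Chromatin accessibility was profiled in CD4+CD8+ double-positive (DP) thymocytes, the developmental stage at which T cell precursors rearrange the T cell receptor alpha chain and are selected. The assay was ATAC-seq, in which a transposase cuts exposed DNA and tags the cut ends for sequencing. The 4 samples formed 2 groups of 2 replicates, all C57BL/6. In KO mice, of genotype Cd4-cre;CHAF1bfloxp/floxp, Cre expressed under the Cd4 promoter deletes the loxP-flanked part of Chaf1b, and WT mice carried the same CHAF1bfloxp/floxp alleles without Cre. Chaf1b encodes the middle subunit of chromatin assembly factor 1 (CAF-1). The labels state neither the ages of the mice nor whether the replicates came from separate mice. WT mice carried no Cre transgene, so the presence of Cre and the loss of Chaf1b cannot be told apart. The authors deposited 1 list of accessible regions per group, made from both replicates, so no difference between KO and WT has a replicate check.

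The regions described here are the wide accessible regions of the WT list, those of 700 bp or more from start to end. There were 651 of them among 15215 WT regions (4.28%), and they held 0.546 Mb, which is 9.98% of the length covered by the WT list. In the KO list 137 of 7645 regions (1.79%) reached the same width. They were chosen by their measured WT width alone. Widths, summit heights and the overlap with the KO list are therefore described and not tested, and a KO region narrower than its WT counterpart is what choosing on the WT width alone also favours.

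CAF-1 deposits histones H3 and H4 on newly replicated DNA and so helps to rebuild nucleosomes behind the replication fork. An accessible region of the usual kind is a stretch of DNA with few or no nucleosomes at a promoter or enhancer. A wide one can span a long or bidirectional promoter, several neighbouring elements, or a repeated sequence to which reads of many copies are assigned.

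The promoters of 6 genes, each overlapped by such a region, serve as examples of sequence. Among members at a gene end that hold the start of a named protein-coding gene in the reference table, they belong to the 3 widest (Prcp, Dmac1 and Arl4a), to the 2 widest without any KO counterpart (Prdm15 and Cep57l1), and to the one with the smallest KO width relative to WT (Psma7). Where several starts lay in a region, the one nearest the WT summit was taken. Each runs 5′ to 3′ on the gene's strand from 250 bases before the annotated start to 50 after it, from RefSeq, build GRCm38.p6. Capitals mark matches, on either strand, to any of 7 short motifs: the ETS core CCGGAAG, the NFY box CCAAT, the SP/KLF GC box GGGCGG, the RUNX motif TGTGGTT, the TATA box TATAAA, the E box CAGGTG and the CRE core TGACGTC. Prcp encodes a lysosomal prolylcarboxypeptidase and lies at chr7:92875003-92875302 on the plus strand. Dmac1, an assembly factor of mitochondrial complex I, lies at chr4:75278243-75278542 on the minus strand. Arl4a, a small GTPase of the ARF-like family, lies at chr12:40037327-40037626 on the minus strand. Prdm15, a zinc finger transcription factor, lies at chr16:97851801-97852100 on the minus strand. The WT region at Prdm15 ends at 97851960, so only part of this promoter is inside it. Cep57l1, a relative of the centrosomal protein Cep57, lies at chr10:41809614-41809913 on the minus strand. Psma7, an alpha subunit of the 20S proteasome, lies at chr2:180042415-180042714 on the minus strand.
Prcp: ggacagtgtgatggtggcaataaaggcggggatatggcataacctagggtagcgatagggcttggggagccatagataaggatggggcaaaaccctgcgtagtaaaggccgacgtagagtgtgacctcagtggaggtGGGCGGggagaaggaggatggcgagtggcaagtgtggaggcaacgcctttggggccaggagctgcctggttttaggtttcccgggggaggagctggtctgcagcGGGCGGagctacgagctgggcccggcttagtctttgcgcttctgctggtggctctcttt
Dmac1: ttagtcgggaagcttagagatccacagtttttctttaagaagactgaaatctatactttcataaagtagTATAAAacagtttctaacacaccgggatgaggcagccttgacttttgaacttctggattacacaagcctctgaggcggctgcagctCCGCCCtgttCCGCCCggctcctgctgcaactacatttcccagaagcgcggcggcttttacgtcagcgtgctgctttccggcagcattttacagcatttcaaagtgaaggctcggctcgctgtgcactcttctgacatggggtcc
Arl4a: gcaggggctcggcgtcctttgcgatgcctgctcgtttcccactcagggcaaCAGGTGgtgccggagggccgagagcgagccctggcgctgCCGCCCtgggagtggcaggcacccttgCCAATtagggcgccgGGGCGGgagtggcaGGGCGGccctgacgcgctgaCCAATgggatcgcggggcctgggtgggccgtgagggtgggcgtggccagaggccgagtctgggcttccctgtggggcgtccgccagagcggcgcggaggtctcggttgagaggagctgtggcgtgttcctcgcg
Prdm15: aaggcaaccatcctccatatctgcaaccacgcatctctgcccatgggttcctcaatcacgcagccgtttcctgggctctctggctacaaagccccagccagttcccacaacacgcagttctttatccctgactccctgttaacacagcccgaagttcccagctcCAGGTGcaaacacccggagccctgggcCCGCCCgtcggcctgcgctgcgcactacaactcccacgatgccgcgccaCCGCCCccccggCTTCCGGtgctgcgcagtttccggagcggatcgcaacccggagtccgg
Cep57l1: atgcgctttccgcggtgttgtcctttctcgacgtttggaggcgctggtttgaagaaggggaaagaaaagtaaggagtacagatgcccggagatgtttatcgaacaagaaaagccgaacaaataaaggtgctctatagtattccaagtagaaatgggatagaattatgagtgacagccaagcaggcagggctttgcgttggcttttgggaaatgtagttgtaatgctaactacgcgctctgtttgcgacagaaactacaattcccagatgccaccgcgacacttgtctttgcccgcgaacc
Psma7: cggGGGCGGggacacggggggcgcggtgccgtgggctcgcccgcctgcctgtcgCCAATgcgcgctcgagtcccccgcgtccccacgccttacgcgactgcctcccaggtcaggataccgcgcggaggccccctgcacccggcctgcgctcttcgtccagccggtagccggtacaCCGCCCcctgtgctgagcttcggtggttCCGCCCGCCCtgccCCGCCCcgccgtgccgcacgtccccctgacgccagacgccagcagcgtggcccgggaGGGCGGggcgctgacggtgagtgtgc

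These promoters differed in composition. The Psma7 promoter was 77.0% G and C with 6 GC boxes and 1 CCAAT box, and the Arl4a promoter was 72.3% G and C with 3 GC boxes, 2 CCAAT boxes and 1 E box. The Cep57l1 promoter, at 47.3% G and C, held none of the motifs. The Dmac1 promoter, at 49.7% G and C, was the only one of the 6 with a TATA box match, beside 2 GC boxes. Prdm15 held 1 ETS core, 2 GC boxes and 1 E box, and Prcp held 2 GC boxes.

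Promoters overlapped in whole or in part by wide regions are called promoters in wide regions here. As a group, they were rich in G, C and CpG, as CpG island promoters are. Over 567 protein-coding promoters of 504 genes that a wide WT region overlapped, the median G and C content was 64.3% and the median ratio of observed to expected CpG was 0.817. The 5355 promoters overlapped by narrower WT regions had medians of 62.0% and 0.807, and the 15341 without a WT region had 53.3% and 0.369. The GC box was in 78.3% of promoters in wide regions and 71.2% of those in narrower regions, and in 46.2% of all 21263 promoters in the table. The CCAAT box was in 48.9%, 47.0% and 38.2% of the same 3 sets. The ETS core was in 21.9% of promoters in wide regions, 24.3% of those in narrower regions and 11.6% of all promoters. A TATA box was in 3.88%, 5.23% and 12.6%, and the RUNX motif in 2.29%, 3.36% and 4.71%. The E box was in 15.7% of promoters in wide regions, 15.9% of those in narrower ones and 19.7% of all, and the CRE core in 7.23%, 6.95% and 3.84%. Accessible promoters of either width class thus held most of these motifs at similar shares. A match is a description of letters and not of binding. These motifs are short, and their share moves with base composition.

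Width among the members ran from 700 to 4579 bp with a median of 782 bp (quartiles 735 and 873). Between 700 and 800 bp lay 372 regions, between 800 and 1000 bp 217, between 1000 and 1500 bp 51, and at 1500 bp or more 11. The median width of the whole lists was 279 bp in KO and 307 bp in WT. There were 9 WT regions of exactly 700 bp and 6 of 699 bp, and the first 3 of each by chromosome name in alphabetical order serve as examples. Just inside the limit, at 700 bp, lay an intergenic region nearest Ahi1 with a KO region of 277 bp, a region at an end of Mdm1 with a KO region of 408 bp, and a region in the body of Prickle1 with none. Just outside it, at 699 bp, lay regions at ends of Fbxo30 and Nckap5l with no KO region, and one at Xrcc4 and Tmem167 with a KO region of 397 bp.

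**Figure D1:**
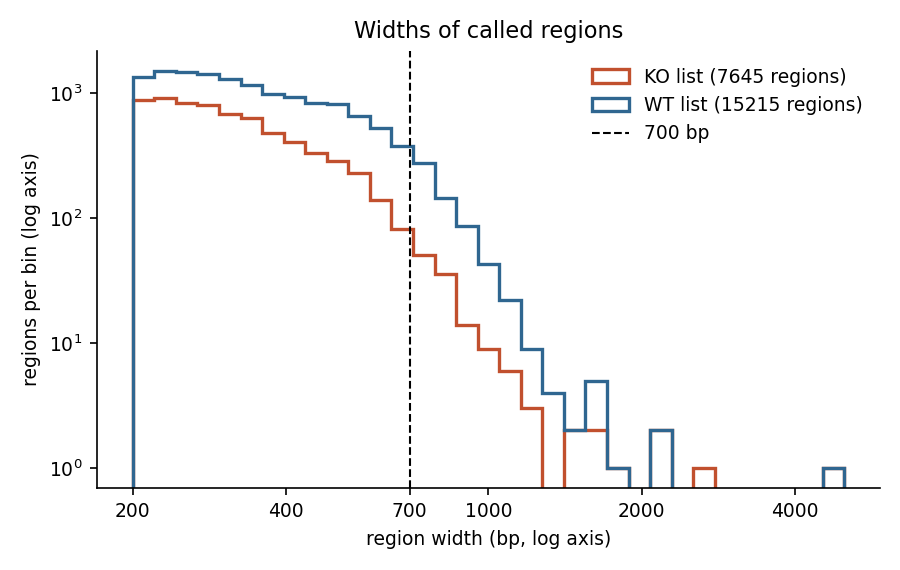
Number of regions (log axis) by region width in bp (log axis) in the KO list (7645 regions, red) and the WT list (15215 regions, blue), with a dashed line at 700 bp. To the right of the line lie 137 KO and 651 WT regions.

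The height at the summit, the most covered base of a region, was recovered from the deposited fold enrichment and p-value as a number of overlapping reads. The genome background, the most frequent local level of reads, was 1.032 in KO and 1.372 in WT, which puts the KO list at 0.752 of the WT depth. Wide WT regions had a median of 34 reads at the summit and a median fold enrichment of 8.97, and WT regions under 700 bp had 18 reads and 6.42. Members were thus among the taller regions of the list, although they ranged from 10 to 386 reads. The fold enrichments are the authors' values for a region and describe it within its own list.

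Marker genes of the labelled cell type and of others were looked up in both lists. Of 15 DP thymocyte markers 4 had a KO region and 13 a WT region in the gene or within 1000 bp of it, against 1 and 2 of 6 B cell markers, 0 and 1 of 5 myeloid markers, 0 and 1 of 4 erythroid markers, 0 and 0 of 6 stromal markers, and 2 and 2 of 4 natural killer markers. The KO list held 7645 regions against 15215 in WT, and 46.2% of all WT regions met a KO region. In KO the share was larger for natural killer than for DP markers. The share over all genes was not set beside these counts, so they do not settle the cell type. No marker of any of these types had a wide region. The targeted gene, Chaf1b, had a WT region of 342 bp at chr16:93883721-93884062 and no KO region. This region had 14 WT summit reads, and of WT regions under 700 bp with 10 to 14 reads only 14.2% met a KO region. The labels also do not say which part of the gene is deleted, so the absence does not check the genotype.

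Wide WT regions lay mostly at genes' ends. Of the 651, 516 (79.3%, exact Clopper-Pearson 95% interval 75.9 to 82.3) were within 1000 bp of an annotated start or end of a gene, against 7525 of 14564 WT regions under 700 bp (51.7%). A further 89 (13.7%) lay inside a gene, more than 1000 bp from its outermost ends, against 31.3% of the narrower regions. Another 43 (6.61%) were intergenic, against 16.6%. The other 3 lay on unplaced sequences without annotation. A region counted as inside a gene can still hold a further annotated start of that gene, as those in Slc39a8 and Pxylp1 did. All intervals given here cover counting error only, since neither reads nor regions are replicates.

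Most members held the start of a gene. On the chromosomes that the promoter table covers, 449 of 627 wide regions (71.6%, interval 67.9 to 75.1) contained an annotated gene start, against 4854 of 14064 narrower regions (34.5%, 33.7 to 35.3). Starts on both strands lay in 112 of the 627 (17.9%, 14.9 to 21.1), against 665 narrower regions (4.73%, 4.38 to 5.09). Of the 112, 97 were divergent pairs, in which the genes run away from each other, with a median of 166 bp between the starts (quartiles 99 and 299, range 5 to 1006). In the other 15 the starts were placed so that the genes overlap. A longer interval has more room for a start, and the share of regions with a start was 17.4% at widths of 200 to 250 bp, 51.5% at 400 to 500 bp and 75.7% at 800 to 1000 bp in the WT list. It was 53.4% at 1000 bp or more.

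The very widest regions had a high local background. No control sample is among the labels, so this background may include reads of the region itself. How much of it came from the surroundings was not tested. All of the 10 widest had a local background, the reads expected around the summit, of more than 4 times the genome background, and so had 16 of the 20 widest, against 45 of all 651. The widest, chr1:24611570-24616148 at Gm10222 and Gm10925, was called at 4575 bp in KO and 4579 bp in WT, with 379 and 386 reads at the summit and a WT background of 122.8 times that of the genome. A region at Gm20590, chr13:74528496-74530742, measured 2106 bp in KO and 2247 bp in WT. Rn18s-rs5, a gene of the 18S ribosomal RNA repeat, had a region at chr17:39846248-39848407 of 2092 bp in KO and 2160 bp in WT, at 74.2 times the genome background. These 3 were called over nearly the same bases in both lists.

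The next 7 widest included a region 90.8 kb from Nlrp4g (chr9:124256260-124258015, 1756 bp in KO and 1756 bp in WT) and one at Gm40237 (chr4:118547123-118548789, 1645 bp in KO and 1667 bp in WT). Inside Myo3a, a myosin gene, a region at chr2:22588592-22590236 measured 1637 bp in KO and 1645 bp in WT with 274 and 284 reads. Another, 332.9 kb from Nid2 at chr14:19416807-19418368, lay under a KO region of 2641 bp and was 1562 bp in WT. The remaining 3 each met a pair of KO regions. They were a region 21.1 kb from Ly6c2 (chr15:75085481-75087093, 347 and 1121 bp in KO, 1613 bp in WT), one at an end of Crlf2, which encodes the receptor subunit for TSLP (chr5:109557215-109558769, 765 and 379 bp in KO, 1555 bp in WT), and one on the unplaced sequence GL456392 (899 and 554 bp in KO, 1540 bp in WT).

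**Figure D2:**
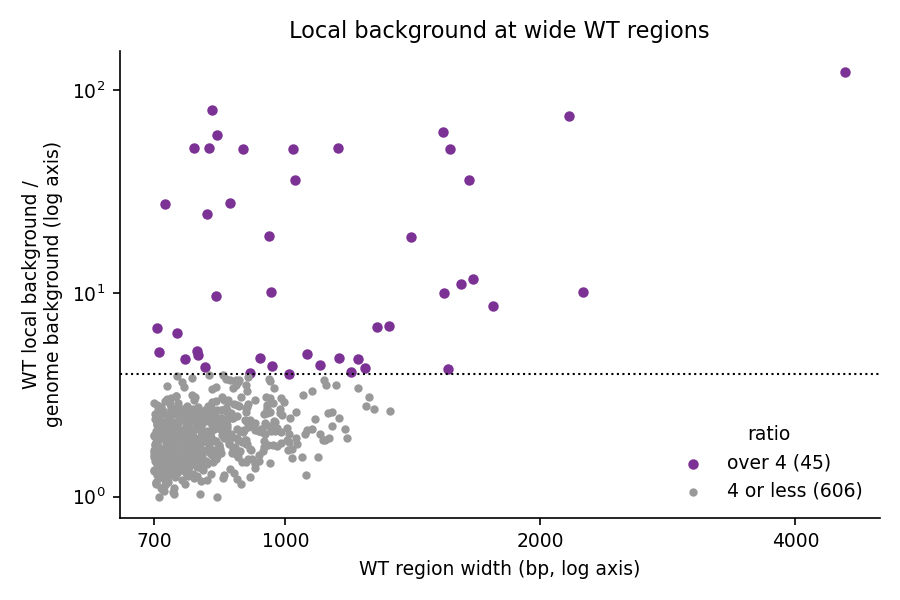
Local background at the WT summit divided by the genome background (log axis) against WT region width in bp (log axis) for the 651 wide WT regions, with a dotted line at 4. The 45 regions above the line (purple) include the 10 widest, and the other 606 (grey) reach 1327 bp.

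Regions of high background were mostly away from gene starts. Of the 45, 15 lay at a gene end, 8 in a gene body, 19 between genes and 3 on unplaced sequences. Gene starts could be looked up only on the chromosomes of the promoter table. There 9 members of high background held one, against 440 of 586 other members (75.1%). The median width of the 45 was 1020 bp against 778 bp in the other 606, and their median summit height 113 reads against 33. They made up 19 of the 43 intergenic members. Among all 216 WT regions of such background, 45 (20.8%) were wide. Copy number of these sequences was not measured here, and its part in the counts was not tested.

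Leaving those 45 out, the widest members were at genes. In KO the region in Slc39a8, which encodes a zinc transporter, was 704 bp with 35 summit reads, and in WT it was 1327 bp with 38 (chr3:135825428-135826754). The shared promoter of Prcp and Ddias (chr7:92874138-92875408), shown above for Prcp, was 1105 bp with 17 reads in KO and 1271 bp with 33 reads in WT. At Dmac1 (chr4:75278206-75279460) 2 KO regions of 349 and 531 bp, the taller with 21 reads, stood against 1 WT region of 1255 bp with 32 reads. All 3 had fewer summit reads in KO, but their widths differed by unlike amounts.

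At Arl4a (chr12:40037099-40038342) the region was 808 bp with 31 reads in KO and 1244 bp with 44 reads in WT. In Plcl2, a gene for a phospholipase C-like protein, it was 1113 bp with 35 reads in KO and 1219 bp with 45 reads in WT (chr17:50631282-50632500). At Ahr, which encodes the aryl hydrocarbon receptor, KO regions of 261 and 230 bp with at most 17 reads lay under a WT region of 1181 bp with 21 reads (chr12:35534099-35535279). Ahr and Plcl2 thus stood at opposite ends in retained width while their WT widths were alike.

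At the start shared by Psma7 and Ss18l1, a chromatin remodeller subunit gene, the KO region was 238 bp with 15 reads and the WT region 1175 bp with 18 reads (chr2:180042068-180043242). Between Nudcd1 and Eny2, whose product belongs to the SAGA and TREX-2 complexes, KO regions of 232 and 632 bp lay in a WT region of 1157 bp, with 29 and 53 reads at the highest summits of KO and WT (chr15:44427503-44428659). The divergent promoter of the centrosomal gene Cep57 and Fam76b was 960 bp with 37 reads in KO and 1147 bp with 63 reads in WT (chr9:13826863-13828009). Otud1, a deubiquitinase gene, had a KO region of 275 bp with 20 reads and a WT region of 1135 bp with 27 reads (chr2:19657285-19658419). In these 10 regions the KO summit was lower than the WT summit each time, at a KO depth of 0.752 of WT. At Slc39a8, Plcl2, Ahr and Psma7 the KO summit was above 0.752 of the WT summit, and at the others below it.

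Nearly all wide WT regions had a KO counterpart. By an overlap of at least 1 bp, 589 of 651 (90.5%, interval 88.0 to 92.6) met a KO region, and of all 15215 WT regions 46.2% did. Among WT regions under 700 bp it was 6437 of 14564 (44.2%, 43.4 to 45.0). By the stricter requirement that the WT summit lie inside a KO region, the count was 557 of 651 (85.6%, 82.6 to 88.2), where the whole WT list had 44.4% and the narrower regions 42.6%. The share with a counterpart went up with WT width throughout the list, at 16.9% for 200 to 250 bp, 55.8% for 300 to 400 bp, 74.9% for 500 to 600 bp, 89.2% for 700 to 800 bp and 95.2% for 1000 bp or more.

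Summit height moved with width and with the share having a counterpart. Among WT regions of 15 to 19 summit reads, the WT summit lay in a KO region for 48.2% of wide ones (34.7 to 62.0, n = 56) and 29.9% of narrower ones (28.5 to 31.3, n = 3970). At 20 to 24 reads it was 60.9% of wide regions (49.9 to 71.2, n = 87) and 54.6% of narrower ones (52.6 to 56.6, n = 2405), and at 25 to 29 reads 83.8% (75.1 to 90.5, n = 99) and 78.2% (75.9 to 80.4, n = 1377). At 30 to 39 reads it was 99.3% (96.1 to 100, n = 140) and 91.4% (89.8 to 92.9, n = 1326). The intervals of the wide and narrower regions did not overlap at 15 to 19 and 30 to 39 reads, and overlapped at the other heights. At each height the gap between wide and narrower regions was smaller than that between 85.6% and 42.6% over all heights.

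**Figure D3:**
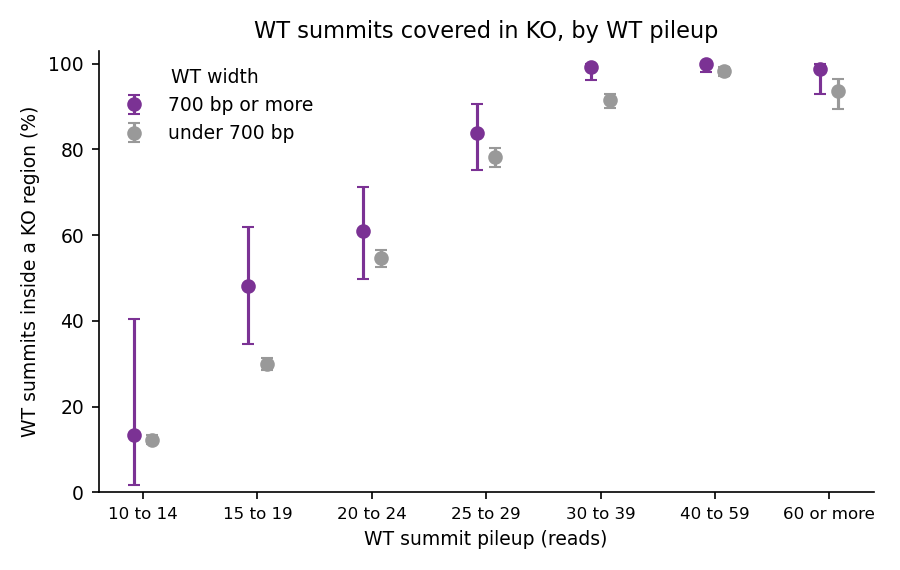
Share of WT summits inside a KO region in percent, by WT summit height in reads, for WT regions of 700 bp or more (purple) and under 700 bp (grey), with exact Clopper-Pearson 95% intervals. At 25 to 29 reads the shares were 83.8% and 78.2%, and at 10 to 14 reads it was 13.3% (2 of 15) and 12.3%.

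The 62 wide regions without a KO counterpart were the lower ones. Their WT summits had a median of 19 reads (10 to 29), against 36 (13 to 386) for the 589 with a counterpart, and their median fold enrichment was 6.44 against 9.22. The widths were alike, with medians of 758.5 and 784 bp. None of the 45 regions of high background was among them.

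The widest without a counterpart was at Prdm15 (chr16:97850836-97851960), whose promoter is printed above, with 1125 bp, 17 reads and a fold of 4.92 in WT. A region of 1028 bp with 20 reads lay at Cep57l1 and the p53-responsive gene Sesn1 (chr10:41809545-41810572). In Pxylp1, a phosphatase gene of proteoglycan synthesis, a region of 1005 bp that held an annotated start of the gene had 28 reads (chr9:96889048-96890052). These 3 had no KO region at any base.

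A region of 941 bp with 29 reads covered the divergent starts of Rita1, which encodes a regulator of Notch signalling, and Ddx54, an RNA helicase gene (chr5:120612454-120613394). At Gyg, which encodes the glycogen primer glycogenin, the region was 907 bp with 18 reads (chr3:20154354-20155260). Absence from the KO list means that no interval passed the authors' threshold at the KO depth, and a lower level below that threshold was not measured.

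Where a KO counterpart existed, it was mostly narrower. The widest KO region over each of the 589 had a median of 464 bp, and its width divided by the WT width had a median of 0.568 (quartiles 0.396 and 0.806, range 0.183 to 2.59). For narrower WT regions with a counterpart the median was 0.813. Of the 589, 113 had a KO region of 700 bp or more and 476 only shorter ones, and in 247 (41.9%) the KO region was under 50% of the WT width, against 9.51% of the narrower regions with a counterpart. A KO region wider than the WT region was found at 33 of the 589 (5.60%), against 18.6% of narrower regions with a counterpart and 8.07% of all WT regions with or without one. As WT width chose these regions, the ratio under 1 is in part fixed by the choice.

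The same reading with the lists exchanged gave another picture. All 137 KO regions of 700 bp or more met a WT region (100%, interval 97.3 to 100), as did 92.6% of all KO regions, and in 112 of them (81.8%) a WT region was also 700 bp or more. The width of the widest WT region divided by the KO width had a median of 1.01 (quartiles 0.970 and 1.09), and the KO region was the wider in 57 (41.6%, 33.3 to 50.3). Chosen on KO width, the regions were thus about as wide in WT, whereas those chosen on WT width were narrower in KO. The KO set was a smaller share of its list, 1.79% against 4.28%, and high background was not left out of it. Of the 45 WT members of high background, 34 met a KO region of 700 bp or more. Among the 651 widest KO regions, which begin at 518 bp, 256 (39.3%) met a wide WT region and 649 met some WT region.

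**Figure D4:**
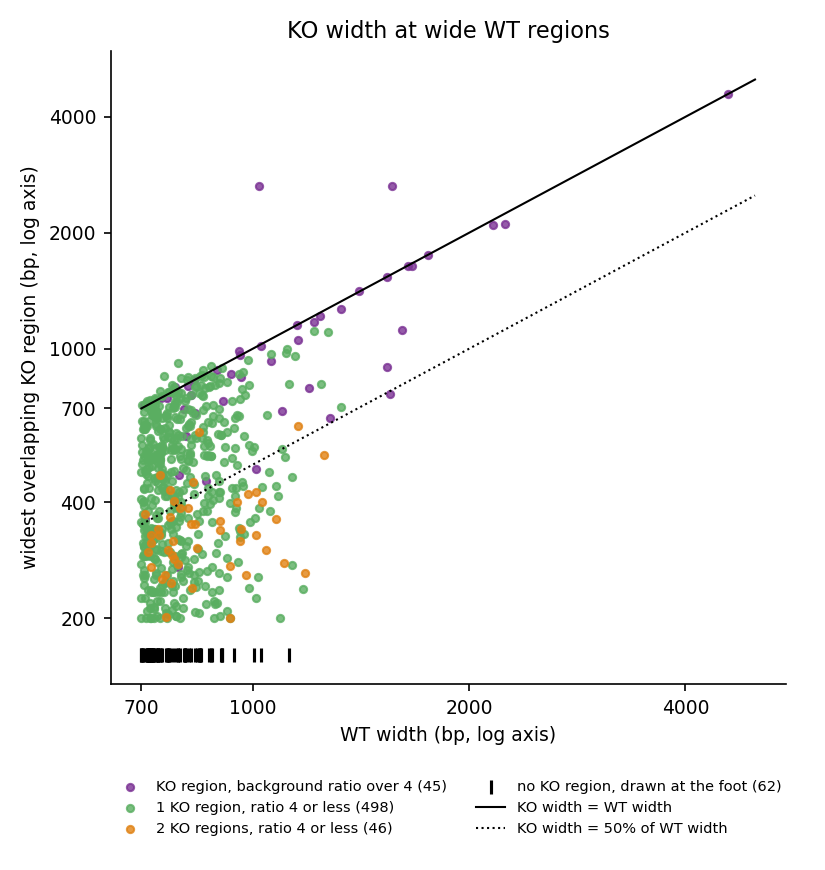
Width in bp (log axis) of the widest overlapping KO region against WT width in bp (log axis) for the 651 wide WT regions, with lines at equal width (solid) and 50% of the WT width (dotted). Regions of high background (purple, 45) have a median ratio of 0.955, with a lower quartile of 0.695 and a range of 0.346 to 2.59. Those with 1 (green, 498) or 2 (orange, 46) KO regions at lower background mostly lie below the line of equal width. The 62 without a KO region are ticked at the foot.

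High background and, from 15 reads up, a taller WT summit mostly went with a wider KO region relative to WT. Regions of high background were also the taller ones, with a median of 113 WT summit reads against 33. Height and background were therefore not told apart here. In the 45 regions of high background the median ratio of KO to WT width was 0.955 and 34 had a KO region of 700 bp or more, against 0.546 and 79 in the other 606, of which 544 (89.8%) had a counterpart. By WT summit height the median ratio in wide regions was 0.563 at 10 to 14 reads, where 4 of 15 had a counterpart, then 0.346 at 15 to 19, 0.426 at 20 to 24, 0.396 at 25 to 29, 0.522 at 30 to 39, 0.710 at 40 to 59 and 0.906 at 60 or more. A called edge lies where signal meets the threshold, so at lower depth it moves toward the summit, and the part of the lower KO depth in these widths was not tested.

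The 5 smallest ratios were all at gene ends, as were 79.3% of all members. At Mcph1, which encodes microcephalin, a protein of chromosome condensation, the KO region was 200 bp with 9 reads and the WT region 1093 bp with 20 reads, a ratio of 0.183 (chr8:18594743-18595835). Psma7 and Ss18l1, given above, had 0.203. At Inka2, an inhibitor of the kinase PAK4, the KO region was 200 bp with 13 reads and the WT region 931 bp with 26 reads (chr3:105704108-105705038). Ints13, a subunit gene of the Integrator complex, shares a divergent start with Fgfr1op2, where 2 KO regions of 200 bp with up to 12 reads lay in a WT region of 931 bp with 18 reads (chr6:146577261-146578191). Ahr had 0.221. A length of 200 bp is the shortest in either list, so the KO regions at Mcph1, Inka2 and Ints13 were at the least length called.

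The 5 largest ratios began with a KO region of 2641 bp that met 2 wide WT regions, 1020 bp long at 331.8 kb from Nid2 and 1562 bp long at 332.9 kb from it. Their ratios were 2.59 and 1.69, at 51.2 and 51.3 times the genome background. At A630089N07Rik the KO region was 921 bp with 28 reads and the WT region 787 bp with 53 reads, a ratio of 1.17 (chr16:98081856-98082642). At Gm15488 it was 848 bp with 25 reads in KO and 752 bp with 39 reads in WT (chr13:111725190-111725941). The divergent promoter of Adk, the adenosine kinase gene, and Ap3m1, an AP-3 adaptor subunit gene, was 839 bp with 21 reads in KO and 796 bp with 29 reads in WT (chr14:21051933-21052728). In the last 3 the KO region was wider while its summit held fewer reads.

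Of the 137 wide KO regions, 25 met only WT regions under 700 bp and 7 of those only WT regions under 500 bp. At Kiz, a centrosomal gene, the KO region was 821 bp and the wider of 2 WT regions 412 bp, with 26 reads in KO and 49 in WT. At Zbtb41, a zinc finger gene, the KO region was 820 bp and the WT region 259 bp, and at Rbx1, the RING subunit gene of cullin ubiquitin ligases, 756 bp in KO and 308 bp for the wider of 2 in WT. The start shared by Mcm4, a subunit gene of the replicative helicase, and Prkdc, the catalytic subunit gene of DNA-PK, had 729 bp in KO and 392 bp for the wider of 2 in WT. At Tug1, a long noncoding RNA gene, and Morc2a it was 716 bp in KO and 366 bp in WT, at Cisd2 711 bp in KO and 220 bp in WT, and at Gm36445 968 bp in KO and 488 bp for the wider of 2 in WT. In 4 of the 7 the KO region thus spanned 2 separate WT regions. That all 7 were wider in KO follows from how they were chosen, and no replicate stands behind either width.

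Some wide WT regions met a pair of KO regions. Of the 651, 62 had none, 537 had 1 and 52 had 2 (7.99%), and none had more. Over all WT regions 0.572% met 2 or more, and over those under 700 bp 0.240%. A pair of KO regions of the shortest length needs room, so a narrow WT region can hardly hold one. In the 52, the gap between the KO regions had a median of 158 bp (quartiles 116.5 and 194.5, range 99 to 614). The summed KO width was a median of 0.701 of the WT width. Of the 52, 43 were at gene ends, as were 516 of all 651 members (79.3%).

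In 49 of the 52 the WT summit lay in one of the 2 KO regions, in 2 it lay between them and in 1 outside both. The members with the most KO regions, ranked by WT width, were those at Ly6c2, Crlf2 and GL456392 given above, an intergenic region 61.9 kb from Smok4a (chr17:13590333-13591614), and Dmac1. The Smok4a neighbour had 432 and 663 bp in KO and 1282 bp in WT, with 58 and 62 reads. The first 4 of these 5 had high background and Dmac1 did not.

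Around gene starts, called regions covered less in KO than in WT on both sides of the start. In the 337 wide regions with starts on 1 strand only, a KO region covered the start in 73.6% and the WT region in 100%, as the regions were chosen to hold it. At 300 bp before the start the shares were 39.5% in KO and 68.2% in WT, and at 300 bp after it 24.6% in KO and 70.6% in WT. At 500 bp before it they were 13.9% in KO and 31.5% in WT, and at 500 bp after it 8.01% in KO and 29.7% in WT.

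Region by region, over the 300 of the 337 with a counterpart, the called stretch reached a median of 280.5 bp before the start in KO and 416 bp in WT. After the start it reached 145.5 bp in KO and 386 bp in WT. The median WT excess was 63.5 bp before the start and 161.5 bp after it. The excess was larger after the start in 179 of 300 (59.7%, interval 53.9 to 65.3) and larger before it in 120. Among 2343 narrower regions with a start on 1 strand and a counterpart, the excess was 32 bp before and 39 bp after, and larger after the start in 1248 (53.3%, 51.2 to 55.3). The WT summit of the wide regions was a median of 50 bp upstream of the start, so the part after the start was farther from the summit.

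**Figure D5:**
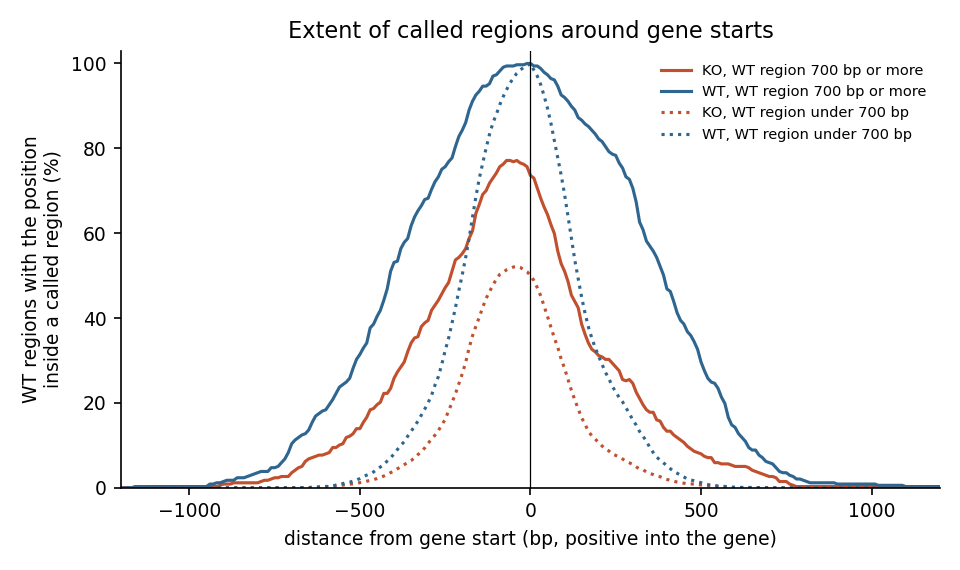
Share of WT regions in percent with a given position inside a called region, by distance from the gene start in bp (positive into the gene), for regions with gene starts on 1 strand. Solid lines are the 337 wide regions in KO (red) and WT (blue), and dotted lines the 4189 narrower WT regions, and at 300 bp the solid lines are at 24.6% in KO and 70.6% in WT.

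By kind of site, the shares with a counterpart had overlapping intervals and the width ratios ranged more widely. Wide regions at gene ends had a KO region in 473 of 516 (91.7%, interval 88.9 to 93.9, median ratio 0.531), against 51.1% of narrower regions at gene ends. In gene bodies it was 77 of 89 (86.5%, 77.6 to 92.8, ratio 0.717), against 36.1% of narrower ones, and between genes 36 of 43 (83.7%, 69.3 to 93.2, ratio 0.875), against 37.5%. High background made up 19 of those 43, and without it the median ratios were 0.525 at gene ends, 0.673 in gene bodies and 0.720 between genes, the last over 17 regions. Regions with starts on both strands had a KO region in 107 of 112 (95.5%) with a median ratio of 0.609. With starts on 1 strand it was 300 of 337 (89.0%) with a ratio of 0.546, and with no start 158 of 178 (88.8%) with 0.620.

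Among gene body members, after Gm20590, Myo3a and Slc39a8, the widest were in Smo, the Hedgehog signal transducer gene, and in Igh, the immunoglobulin heavy chain locus. In Smo the region was 1218 bp with 76 reads in KO and 1241 bp with 72 reads in WT (chr6:29747794-29749034), and in Igh 1173 bp with 37 reads in KO and 1219 bp with 58 reads in WT (chr12:113424259-113425477). Both regions exceeded 4 times the genome background. Between genes, 1 region lay 37.1 kb from Mir101c at 1532 bp in KO and 1536 bp in WT, and 1 on chromosome 18 lay 20.8 kb from Vmn1r-ps151 at 1266 bp in KO and 1325 bp in WT. All 4 were nearly as wide in KO as in WT.

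The members with the highest WT fold enrichment were not the widest. A region 1.43 kb from the ferritin pseudogene Ftl1-ps2 had a fold of 22.6, 743 bp with 150 reads in KO and 761 bp with 170 reads in WT (chr10:130594329-130595089). In Cmss1 and Filip1l, genes that overlap, the fold was 20.2, with 713 bp and 195 reads in KO and 706 bp and 206 reads in WT (chr16:57391053-57391758). At Scai, a transcriptional cofactor gene, it was 17.9, with 447 bp and 50 reads in KO and 738 bp and 83 reads in WT (chr2:39190381-39191118). Scai alone of these 3 was much narrower in KO. The regions at Ftl1-ps2 and Cmss1 stood at 4.78 and 6.73 times the genome background, and that at Scai at 2.70 times. The Scai ratio of 0.606 was above the median of 0.546 for members without high background.

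In Cldn34d, a claudin family gene, the fold was 17.2, with 713 bp and 76 reads in KO and 701 bp and 76 reads in WT (chrX:76598514-76599214). At 5430403G16Rik it was 17.0, with 779 bp and 59 reads in KO and 743 bp and 89 reads in WT (chr5:109690518-109691260). Both were wider in KO than in WT.

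Summit heights, summed over the 589 wide regions present in both lists, gave 18881 KO reads of 45981 reads in all, a KO share of 41.1%. The genome backgrounds give 42.9% for equal accessibility at these depths. Without the regions of high background the share was 38.5% (37.9 to 39.0), and in narrower regions treated the same way 39.7% (39.5 to 39.9). At matched sums of 100 to 150 reads it was 38.0% in wide regions (36.4 to 39.5) and 41.6% in narrower ones (40.6 to 42.7), and at 40 to 60 reads 38.4% and 37.9%. Region by region, the KO height was a median of 0.633 of the WT height, and 13 of the 589 had more reads in KO than in WT. One of these, at 8.25 kb from Snrpe (chr1:133594506-133595619), had 26 reads over 976 bp in KO and 15 reads over 1114 bp in WT. The KO and WT summits were a median of 32 bp apart. Regions missing from the KO list bring no KO reads to these sums, so the share describes shared regions and not all members.

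The gene lists for this tissue held few members. Of 9477 protein-coding genes with a WT region in the gene or within 1000 bp, 681 (7.19%) had a wide one. In the list of DP identity and T cell receptor genes 29 of 35 had a WT region and 1 a wide one, Cd1d1, which encodes the molecule that presents lipid antigens to invariant natural killer T (iNKT) cells. Its region in the gene body (chr3:86998725-86999545) was 562 bp with 17 reads in KO and 821 bp with 32 reads in WT, a ratio of 0.685. Cd1d1 was also the 1 member among the 13 iNKT development genes with a WT region. The lists of maturation and migration genes (16 with a WT region), survival genes (7), DNA replication and cell cycle genes (18), chromatin regulators (17) and RNA processing genes (13) had no wide region.

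Among CAF-1 and histone chaperone genes, 15 of 16 had a WT region and 1 a wide one. It was Hjurp, the chaperone gene of the centromeric histone CENP-A, with 361 bp and 51 reads in KO and 709 bp and 65 reads in WT (chr1:88277128-88277836), at 5.15 times the genome background. Among 17 housekeeping genes with a WT region the wide one was Hspa8, the constitutive heat shock protein 70 gene, with 630 bp and 32 reads in KO and 713 bp and 40 reads in WT (chr9:40800727-40801439). The lists of other cell types had 2 B cell genes, 1 myeloid, 1 erythroid, 1 stromal and 2 natural killer genes with a WT region and none with a wide one. The lists thus held 3 member genes in all, and whether their shares differ from 7.19% was not tested.

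Several genes of lymphocyte signalling were found among the members on reading through them, and are given as chosen after their values were seen. At Bcl10, the adaptor of the antigen receptor signalling complex, the region was 704 bp with 33 reads in KO and 712 bp with 69 reads in WT (chr3:145923889-145924600). At Malt1, the paracaspase of the same complex, it was 589 bp with 22 reads in KO and 763 bp with 37 reads in WT. A region 2.61 kb from Pdcd1, which encodes the inhibitory receptor PD-1, was 352 bp with 25 reads in KO and 767 bp with 40 reads in WT (chr1:94034930-94035696). The Bcl10 region kept its width at a lower KO summit, and the other 2 were narrower in KO.

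Birc2 and Birc3 are neighbouring genes for inhibitor of apoptosis proteins. At Birc2 the region was 438 bp with 11 reads in KO and 1031 bp with 24 reads in WT (chr9:7836504-7837534), and at Birc3 no KO region met the WT region of 779 bp with 15 reads (chr9:7872534-7873312). At Zc3h12a, the gene of the RNase regnase-1, the WT region of 792 bp with 23 reads also had no counterpart (chr4:125127316-125128107). Nor did the WT region of 706 bp with 17 reads at Dpp4, which encodes CD26 (chr2:62411390-62412095). All 3 without a counterpart had fewer than 25 WT summit reads.

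Chromatin genes met in the same way included Hdac2, a histone deacetylase gene, where KO regions of 376 and 424 bp with up to 14 reads lay in a WT region of 1011 bp with 25 reads (chr10:36974133-36975143). At Smarca5, the ATPase gene of ISWI remodellers, it was 426 bp with 18 reads in KO and 898 bp with 28 reads in WT (chr8:80739036-80739933). At Dnmt3a, the de novo DNA methyltransferase gene, it was 493 bp with 24 reads in KO and 718 bp with 27 reads in WT (chr12:3870845-3871562). Outside the chromatin genes, at Ptger4, a prostaglandin E receptor gene, KO regions of 316 and 260 bp with up to 36 reads lay in a WT region of 775 bp with 50 reads (chr15:5244131-5244905). In each of these 4 the widest KO region was shorter than the WT region, as it was in most members. Another histone deacetylase gene, Hdac4, held a member that nearly kept its width. It was 756 bp with 30 reads in KO and 781 bp with 46 reads in WT.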

How the data were processed

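The members, gene lists and motifs were chosen with earlier results of these data known. MACS2 2.1.4, deepTools 3.4.1, Bowtie2, Picard, GATK, Trim Galore, FastQC and the build mm10 were named, per the submitters' processing notes. How and in what order they were run, and whether reads were shifted for the transposase cut, is not given in the sources used here. Per the labels, each deposited list pooled its group's replicates, and 0 columns hold values per replicate. The authors deposited, beside start, end and summit position, the fold enrichment, the -log10 of the p-value and of the q-value, and a score. The deposited score repeated the -log10 q and was not used as a measure. The summit lists were not used.

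Summit reads and local background were solved from the deposited fold enrichment, (pileup + 1) / (background + 1), and Poisson p-value, and the pileups came out whole within 0.05 reads on 100% of regions of both lists. The most frequent background gave the relative depth; the total reads per library are not given in these files. Lists were compared by an overlap of at least 1 bp. Gene positions and promoter sequences came from RefSeq tables of assembly GRCm38.p6, on which mm10 is based. The promoter table covered 20 chromosomes, so 24 of the 651 members have no promoter data, and exons and introns were not used here. Shares carry exact Clopper-Pearson 95% intervals, and no p-value was computed. The solver and the overlaps were tested on simulated data, with 2000 of 2000 pileups and 7721 of 7721 kept regions recovered. The genes named were those at the 10 widest members, at the 5 at each end of the width ratio, at the 5 with the highest fold enrichment, with the most KO regions, widest without a KO region, widest in gene bodies and widest between genes, and in the lists. The widest members without high background, above 4 times the genome background, were added after the values were seen, and high background is a class set from these data. Scripts ran in Python 3.11.15 with scipy 1.17.1, pandas 2.3.3, numpy 2.4.6 and matplotlib 3.10.9.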

Additional observations from a re-analysis of the deposited data

How the results depend on the processing

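Of 41 alternatives over 7 results, 21 left the value inside the interval of the main value or, for a count, within 1.5 times the main count, and 20 moved it. The share of wide WT regions with a KO region, 90.5%, was 85.9% for a width of 600 bp, 95.2% for 1000 bp, 57.9% when at least 50% of the WT region had to be covered and 67.3% at a -log10 q of at least 10 in both lists. It was 85.6% when the WT summit had to lie in a KO region. The median width ratio, 0.568, was 0.697 at the stricter q, 0.630 for summed KO widths and 0.654 from the first KO start to the last KO end. The count of 52 members with 2 KO regions was 31 at 800 bp, 14 at 1000 bp and 11 at the stricter q, where fewer regions enter. The share at a gene end, 79.3%, was 62.9% at 1000 bp, 82.9% within 2000 bp of an end, 74.2% for protein-coding genes and 82.7% without high background. The KO share of summit reads, 41.1%, was 40.1% at 600 bp, 42.5% at 800 bp, 46.3% at 1000 bp and 38.5% without high background, so at 1000 bp it lay above the 42.9% that the depths give, where the main value lay below it. The share with a gene start, 71.6%, was 53.4% at 1000 bp. The alternatives on high background, on the WT summit and on the gene start were chosen after seeing the data. Beyond what fewer regions or a wider window give, the cause was not tested. No paired analysis was possible because each list pools both replicates of its group, and for the same reason no replicate could be left out. All 62 members without a KO region had fewer than 30 WT summit reads, and the part of the KO depth in their absence was not tested.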

Other observations

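Wide regions made up 4.28% of all WT regions, and their share by chromosome is given without a test. Chromosome 1 held 72 among its 1053 WT regions (6.84%, interval 5.39 to 8.53), of which 3 had high background, and chromosome 17 held 41 (5.88%, 4.25 to 7.90), of which 6 had high background. Chromosome 11 held 20 among 927 (2.16%, 1.32 to 3.31), the X chromosome 8 (2.34%, 1.02 to 4.56), and the Y chromosome 0 of 25. The intervals of chromosomes 17, X and Y hold 4.28%, and those of chromosomes 1 and 11, the highest and lowest of the placed chromosomes other than Y, do not. Members close to each other are given as counts, without an expected number beside them. There were 6 neighbouring pairs within 2000 bp of each other, 10 within 10 kb and 35 within 50 kb, such as the regions at Birc2 and Birc3. Genes with the zinc finger prefix Zfp had a promoter in a wide region in 16 of 504 genes (3.17%), against 170 of 4914 genes (3.46%) with a promoter in a narrower region.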
